A study of Drosophila melanogaster with 32 samples.

Results

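The translation initiation and elongation factor genes described here are the 33 of 14161 genes in the deposited count table whose names start with eIF, Ef1 or Ef2. RNA was sequenced from larval brains of Drosophila melanogaster, both as whole-brain RNA (input) and after pull-down of a GFP-tagged ribosomal protein (IP). The 4 groups were ato IP, wild-type IP, ato input and wild-type input. All 4 carried the driver ipcGal4 and the transgene UASRpl10Ab::GFP, and the ato groups carried in addition ato1, a loss-of-function allele of the proneural gene ato. Larvae were in instar 3 and were raised at 25 degrees. Each group had 2 libraries, and each preparation pooled 500 brains, of which 10% of the homogenate became the input and the rest was precipitated with antibodies to GFP. According to the series, the tagged protein is expressed in T4/T5 neurons, which detect motion in the optic lobe. That rests on the driver alone, and IPs from brains without the tag were not analysed here, so RNA carried along without tagged ribosomes is not separated from ribosome-bound RNA.

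Initiation factors bring the initiator tRNA and the small ribosomal subunit to the capped end of a messenger RNA, find the start codon and let the large subunit join. Elongation factors then deliver aminoacyl-tRNAs to the ribosome and move it along the message. The messages of these abundant proteins are themselves read by the ribosomes they serve, and in mammals the translation of many elongation factor messages follows growth signals together with that of ribosomal protein messages.

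The libraries held 7780123 to 12238648 counts, and the 33 genes together took 4.32% to 5.38% of them. Replicates correlated at 0.958 to 0.982 across genes, where genes are not independent replicates. The labels number the replicates without saying that they came from separate crosses or collections, so p-values measure only the spread between these libraries. Levels below are CPM, counts divided by the TMM-scaled size of the library, or CPM per kilobase of exon where genes are set beside each other. Summed CPM of 6 neuronal markers was 884 and 888 in ato IP, 1011 and 939 in wild-type IP, 599 and 642 in ato input, and 597 and 655 in wild-type input. The 9 muscle markers summed to 1643 and 785 CPM in ato IP, 761 and 594 in wild-type IP, 374 and 209 in ato input, and 105 and 111 in wild-type input. None of these markers was at 0 in every library, and the same holds for the 8 T4/T5 neuron, 8 glial, 5 fat body and 6 hemocyte markers.

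The elongation factor Ef1alpha48D was the most abundant member, followed by the helicase gene eIF-4a. Of the 33 genes, 28 averaged at least 10 CPM over the 8 libraries, and the other 5 are the eIF4E paralogs described last. Ef1alpha48D (eEF1alpha1, the carrier of aminoacyl-tRNA; chromosome 2R, 7779597 to 7783025 in dm3) averaged 11908 CPM per kilobase and ranked 2 among all genes on this scale. It had 23958 and 28324 CPM in ato IP, 19281 and 22720 in wild-type IP, 28496 and 28951 in ato input, and 27007 and 25800 in wild-type input. Its share of the counts of all 33 genes was 51.3% and 54.4% in ato IP, 47.2% and 47.6% in wild-type IP, 55.4% and 54.0% in ato input, and 52.6% and 51.8% in wild-type input. The share was lowest in the wild-type IP, where both libraries lay below the other 6.

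The next members per kilobase were eIF-4a (2913 CPM per kilobase), eIF-5A (2046), Ef2b (1780), Ef1beta (1309) and Ef1gamma (1143). The cap-complex helicase eIF-4a (eIF4A) had 4856 and 5183 CPM in ato IP, 4512 and 5986 in wild-type IP, 5449 and 6825 in ato input, and 6640 and 6597 in wild-type input. The gene eIF-5A (eEF5, which keeps ribosomes moving through difficult peptide bonds) had 1397 and 1723 CPM in ato IP, 1369 and 2344 in wild-type IP, 1730 and 1375 in ato input, and 1459 and 1318 in wild-type input. Its wild-type IP libraries differed more from each other than any other pair of its replicates, and the ato IP values lie between them. Ef2b (eEF2, the translocase) had 5567 and 5730 CPM in ato IP, 5669 and 5954 in wild-type IP, 4106 and 4961 in ato input, and 4874 and 4824 in wild-type input. All 4 IP libraries of Ef2b lay above all 4 inputs, without passing the test in either genotype. Ef1beta, part of the complex that recharges Ef1alpha with GTP, had 1217 and 1286 CPM in ato IP, 897 and 1233 in wild-type IP, 1454 and 1152 in ato input, and 1067 and 959 in wild-type input. Its partner Ef1gamma had 1817 and 2070 CPM in ato IP, 1992 and 2087 in wild-type IP, 1955 and 2085 in ato input, and 2109 and 1944 in wild-type input. The groups of both genes overlapped except Ef1beta between the inputs.

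Within a group, the highest and lowest eIF3 subunits among the members differed by at most 4.20-fold per kilobase, and those of eIF2B by at most 3.13-fold. The large complex eIF3 holds the small ribosomal subunit ready for initiation. Its 5 subunits among the members lay between 71.6 and 301 CPM per kilobase in the group means. Further eIF3 subunits, such as Int6 (eIF3e) and Trip1 (eIF3i), carry other names and are not part of these values. The 5 subunits of eIF2B, which recharges eIF2 with GTP and is the step that stress kinases slow, lay between 12.7 and 50.8 CPM per kilobase. The lowest member of the 28 was eIF2B-gamma, at 16.1 CPM per kilobase and rank 4636 of all genes. The scanning factor gene eIF-1A stood above the members of both complexes. It had 559 CPM per kilobase in ato IP, 467 in wild-type IP, 486 in ato input and 471 in wild-type input.

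**Figure D1:**
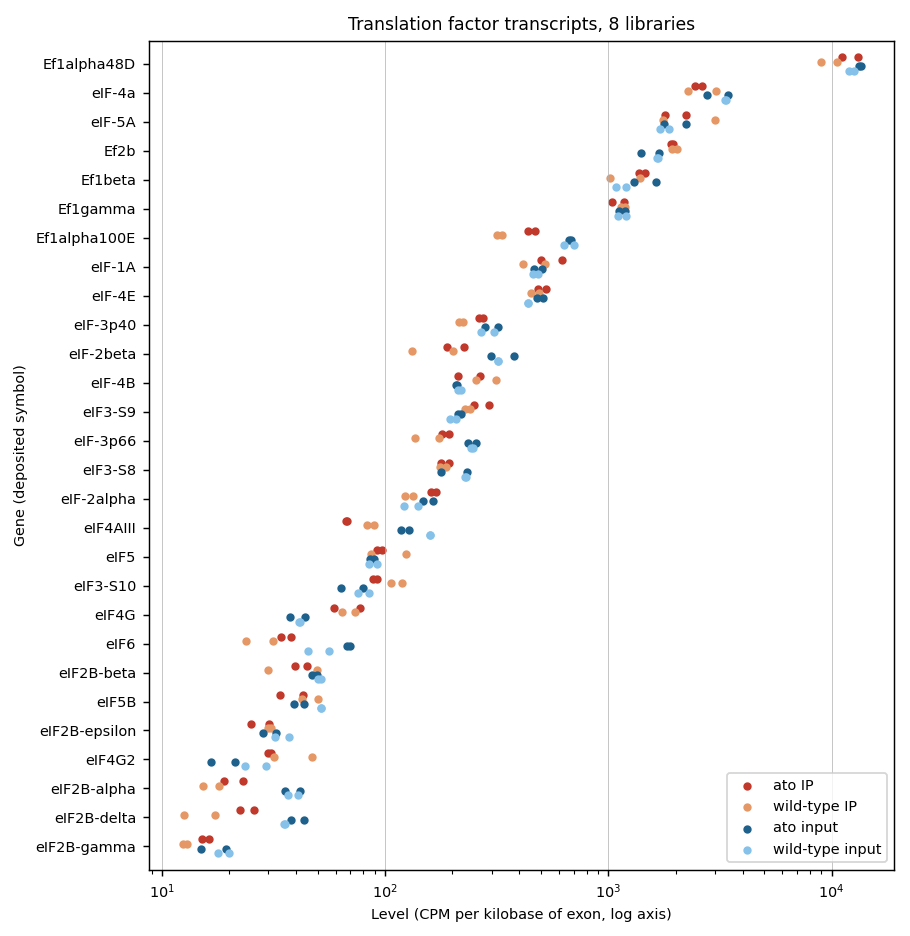
Level of the 28 translation factor genes with a mean of at least 10 CPM, in CPM per kilobase of exon on a log axis, with 1 point per library and 1 colour per group. Ef1alpha48D stands highest at a mean of 11908, eIF2B-gamma lowest at 16.1, and the spread between groups is small beside the spread between genes.

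The comparison of IP with input asks which transcripts the tagged ribosomes carried relative to the whole brain. In ato, 6 of the 29 members tested were lower in the IP (20.7%, against 16.3% of all 10224 tested genes) and 2 were higher (6.90%, against 11.9%). In wild type, 7 were lower (24.1%, against 18.4% of all genes) and 3 higher (10.3%, against 17.4%). With DESeq2's own test the splits were 6 lower and 5 higher in ato and 7 lower and 5 higher in wild type, and over all genes 13.7% lower and 15.8% higher in ato and 16.1% lower and 20.8% higher in wild type. These shares are near those of the whole table, so what follows concerns the named genes and not the family. Beside the calls, the IP and input libraries did not overlap in 18 of 28 abundant members in ato and 22 of 28 in wild type, against 64.2% and 69.7% of all genes. The 6 lower and 2 higher genes of ato were called in the same direction in wild type. All tests named below are edgeR quasi-likelihood F tests with Benjamini-Hochberg adjustment over the 10224 genes. The IP holds RNA on tagged ribosomes and the input that of the whole brain. A lower value in the IP therefore does not separate the level in the tagged cells from the ribosome load of the message.

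Among the elongation factors, Ef1alpha100E was lower in the IP in both genotypes, and no other passed the test. Ef1alpha100E (eEF1alpha2, chromosome 3R, 27564190 to 27569028), a paralog of Ef1alpha48D with the same function, had 1155 and 1244 CPM in ato IP, 846 and 885 in wild-type IP, 1799 and 1773 in ato input, and 1683 and 1856 in wild-type input. All 4 IP libraries lay below all 4 inputs. The log2 change from input to IP was -0.57 ± 0.15 in ato (SE, 2 libraries in each group, adjusted p = 0.00995) and -1.03 ± 0.15 in wild type (adjusted p = 0.000105). The ato call was lost without ato IP 1 (adjusted p = 0.0953). For Ef1alpha48D the values were -0.14 ± 0.16 in ato (adjusted p = 0.559) and -0.33 ± 0.16 in wild type (0.113). The wild-type value passed without wild-type IP 2, at -0.45, and with a correction for exon length, at -0.34 (adjusted p = 0.0429). Ef1alpha48D exceeded Ef1alpha100E per kilobase by a ratio of 26.9 ± 1.77 in ato IP (SD, n = 2), 30.0 ± 2.50 in wild-type IP, 19.9 ± 0.426 in ato input and 18.5 ± 1.87 in wild-type input. The IP ratios, 25.7 and 28.2 in ato and 28.2 and 31.7 in wild type, were all above the input ratios, 19.6 and 20.2 in ato and 19.8 and 17.2 in wild type. The 2 proteins are close relatives, and the counting kept only reads of mapping quality 5 or more, so reads that match both genes equally well may be missing from both values and from their ratio.

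The other elongation factors did not pass in either genotype. In ato the log2 changes from input to IP were 0.32 ± 0.16 for Ef2b, -0.06 ± 0.18 for Ef1beta, -0.06 ± 0.15 for Ef1gamma and 0.01 ± 0.22 for eIF-5A. In wild type they were 0.26 ± 0.16 for Ef2b, 0.07 ± 0.18 for Ef1beta, 0.01 ± 0.15 for Ef1gamma and 0.42 ± 0.22 for eIF-5A. The wild-type value of eIF-5A passed when wild-type IP 1 was left out, at 0.74, and with the length correction, at 0.45 (adjusted p = 0.0361). Ef2b passed with the DESeq2 test in both genotypes, at 0.43 in ato and 0.34 in wild type.

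**Figure D2:**
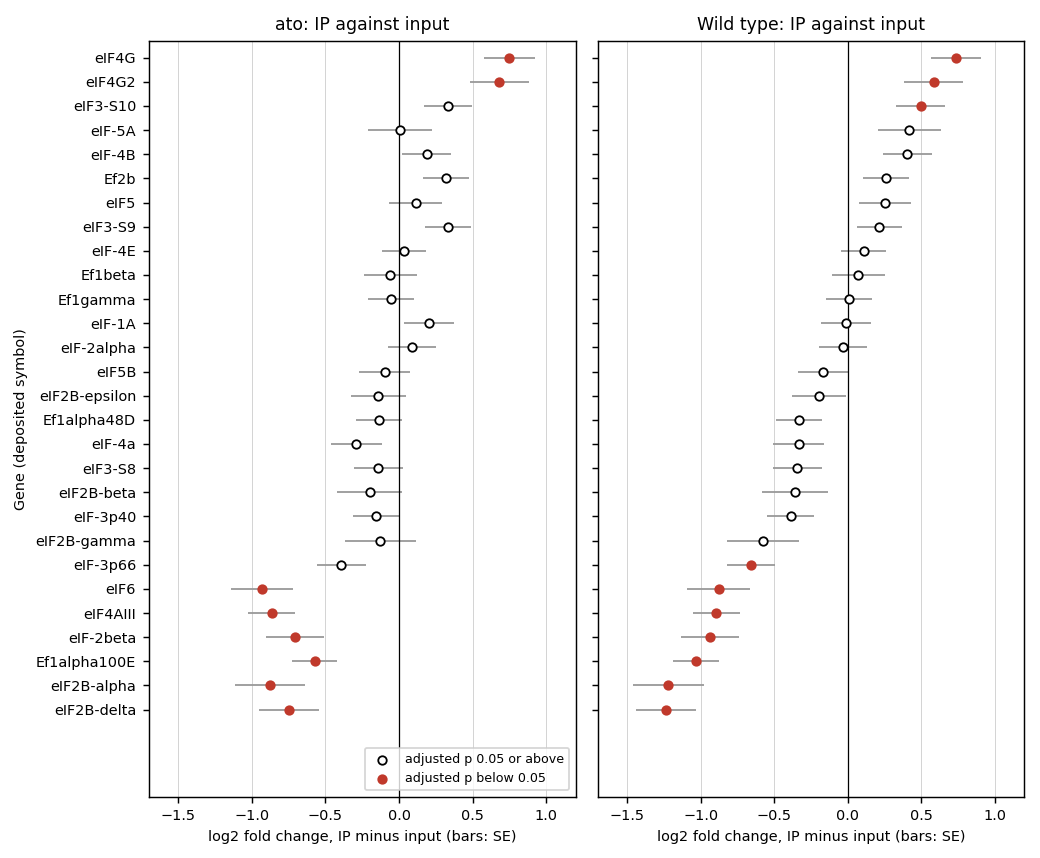
Log2 fold change of IP minus input for the 28 members with at least 10 CPM, in ato (left) and wild type (right), with bars of 1 SE from 2 libraries per group and filled points where the edgeR adjusted p was below 0.05. The genes lower in the IP, from eIF-3p66 to eIF2B-delta, fill the bottom of both panels (eIF-3p66 passed in wild type only), and eIF4G and eIF4G2 stand at the top.

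Of the factors that carry the initiator tRNA, eIF-2beta was lower in the IP. It encodes a subunit of eIF2 (chromosome 3L, 12518193 to 12519837) and had 255 and 215 CPM in ato IP, 150 and 228 in wild-type IP, 430 and 339 in ato input, and 362 and 362 in wild-type input. All IP libraries lay below all inputs. The change was -0.71 ± 0.20 in ato (adjusted p = 0.0130) and -0.94 ± 0.20 in wild type (0.00173), and the ato call did not survive leaving out ato input 1 (0.136) or ato IP 2 (0.109). Its partner eIF-2alpha, the subunit that stress kinases phosphorylate, did not pass in either genotype. Neither did eIF-1A nor eIF5, which triggers GTP hydrolysis by eIF2.

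The eIF2B subunits had negative values in both genotypes, and the alpha and delta subunits passed. The sign of gamma in ato turned without ato input 1 (0.10) and with 1 run per library (0.02), as did that of epsilon in wild type with 1 run per library (0.02). Alpha and delta belong to the regulatory part of eIF2B together with beta, while gamma and epsilon form the catalytic part. The gene eIF2B-alpha (chromosome 3R, 25760304 to 25761598) had 18.8 and 23.0 CPM in ato IP, 15.2 and 18.0 in wild-type IP, 35.2 and 41.5 in ato input, and 36.6 and 40.4 in wild-type input. The gene eIF2B-delta (chromosome 2R, 19274016 to 19276575) had 57.1 and 49.1 CPM in ato IP, 38.3 and 27.7 in wild-type IP, 95.2 and 83.4 in ato input, and 77.3 and 78.4 in wild-type input. In both genes every IP library lay below every input. The change of eIF2B-alpha was -0.88 ± 0.24 in ato (adjusted p = 0.0109) and -1.22 ± 0.24 in wild type (0.000973). That of eIF2B-delta was -0.75 ± 0.20 in ato (0.0108) and -1.23 ± 0.21 in wild type (0.000260). In ato, leaving out ato IP 1 (0.103) or ato input 2 (0.0634) ended the call of eIF2B-alpha, and leaving out ato IP 2 (0.112) or ato input 1 (0.102) ended that of eIF2B-delta. With 1 run per library both ended (0.222 for alpha and 0.0539 for delta). The subunits that did not pass had -0.20 ± 0.22 (beta), -0.13 ± 0.24 (gamma) and -0.14 ± 0.19 (epsilon) in ato, and -0.36 ± 0.22, -0.58 ± 0.24 and -0.19 ± 0.18 in wild type in the same order. The beta value in wild type passed without wild-type IP 2, at -0.76.

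Of the 5 eIF3 subunits among the members, eIF-3p66 was lower and eIF3-S10 higher in the wild-type IP. The gene eIF-3p66 (eIF3d, a cap-contacting subunit in human cells) had 390 and 362 CPM in ato IP, 350 and 272 in wild-type IP, 474 and 513 in ato input, and 497 and 486 in wild-type input. Its groups did not overlap in either genotype, with changes of -0.39 in ato (adjusted p = 0.0853) and -0.66 ± 0.16 in wild type (0.00550). Leaving out wild-type IP 2 (0.0542) or wild-type input 1 (0.0507) ended the wild-type call, and the ato value passed with the length correction (-0.40, adjusted p = 0.0462). The gene eIF3-S10 (eIF3a, the scaffold subunit) had 349 and 338 CPM in ato IP, 453 and 404 in wild-type IP, 242 and 304 in ato input, and 321 and 287 in wild-type input. Its change was 0.33 ± 0.17 in ato (0.147) and 0.49 ± 0.17 in wild type (0.0280). That call ended when wild-type IP 1 (0.119) or either input, replicate 1 (0.105) or 2 (0.240), was left out. The gene eIF-3p40, which shares 20% of its exon bases with CG14040, had -0.16 ± 0.16 in ato and -0.39 ± 0.16 in wild type, eIF3-S8 had -0.14 ± 0.16 and -0.34 ± 0.16, and eIF3-S9 had 0.33 ± 0.15 and 0.21 ± 0.15, none of which passed. Of the other members, 24 share no exon bases with another gene and the rest at most 6.5%. In ato, eIF3-S9 passed in edgeR with DESeq2 size factors (0.44, adjusted p = 0.0471) and with the DESeq2 test (0.44, adjusted p = 0.0109). The DESeq2 test also called eIF3-S10 in ato (0.44, adjusted p = 0.0229).

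In the cap-binding complex the scaffold genes were higher in the IP. The gene eIF4G (eIF4G1, chromosome 4, 935911 to 951347) encodes the scaffold that joins cap-binding protein, helicase and poly(A)-binding protein. It had 509 and 391 CPM in ato IP, 481 and 424 in wild-type IP, 248 and 288 in ato input, and 271 and 273 in wild-type input. Its paralog eIF4G2 (chromosome 3R, 19635550 to 19644364), known in flies for its role in male meiosis, had 213 and 219 CPM in ato IP, 334 and 228 in wild-type IP, 119 and 151 in ato input, and 167 and 208 in wild-type input. All 4 IP libraries of each gene lay above all 4 inputs. The change of eIF4G was 0.75 ± 0.17 in ato (adjusted p = 0.00384) and 0.73 ± 0.17 in wild type (0.00342). That of eIF4G2 was 0.68 ± 0.20 in ato (0.0174) and 0.58 ± 0.20 in wild type (0.0301). The ato call of eIF4G was lost without ato IP 1 (0.0755). The ato call of eIF4G2 ended when IP replicate 1 (0.0589), IP replicate 2 (0.0673) or input replicate 1 (0.142) was left out. Its wild-type call ended when IP replicate 1 (0.349), input replicate 1 (0.268) or input replicate 2 (0.0515) was left out. The cap-binding protein gene eIF-4E had 0.03 ± 0.15 in ato and 0.11 ± 0.15 in wild type, eIF-4a had -0.29 ± 0.17 and -0.33 ± 0.17, and the helicase cofactor eIF-4B had 0.19 ± 0.17 and 0.40 ± 0.17, without passing. The wild-type value of eIF-4B passed without wild-type IP 1 (0.53) and with DESeq2 size factors (0.48), and that of eIF-4a without wild-type IP 2 (-0.55).

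The genes eIF6 and eIF4AIII, which act on the free large subunit and on spliced messages, were both lower in the IP. The gene eIF6 (chromosome 2R, 19736769 to 19737822) encodes the factor that keeps the large subunit from joining too early. It had 39.8 and 36.0 CPM in ato IP, 25.1 and 33.2 in wild-type IP, 73.7 and 71.0 in ato input, and 59.2 and 47.7 in wild-type input. The change was -0.93 ± 0.21 in ato (adjusted p = 0.00385) and -0.88 ± 0.22 in wild type (0.00488), and the wild-type call was lost without wild-type input 1 (0.0793) and with 1 run per library (0.0772). The gene eIF4AIII (chromosome 3R, 4138936 to 4140588) is related to eIF-4a by sequence and name, but its protein is the RNA-clamping helicase of the exon junction complex. It had 100 and 98.8 CPM in ato IP, 122 and 132 in wild-type IP, 174 and 188 in ato input, and 236 and 236 in wild-type input. Its groups stood in the order ato IP, wild-type IP, ato input and wild-type input with no overlap between any of them. The change was -0.87 ± 0.16 in ato (0.000791) and -0.89 ± 0.16 in wild type (0.000449), calls that were kept under each of the 12 alternatives run. The ratio of eIF4AIII to eIF-4a per kilobase was 0.0265 ± 0.00146 in ato IP, 0.0328 ± 0.00476 in wild-type IP, 0.0398 ± 0.00409 in ato input and 0.0476 ± 0.000205 in wild-type input (SD, n = 2). The gene eIF5B, whose product joins the subunits, did not pass in either genotype.

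The IP-over-input values of the members moved with exon length. The genes called higher are the longest members apart from eIF5B, with 7120 exon bases in eIF4G2, 6583 in eIF4G and 3808 in eIF3-S10, while eIF5B has 4115 and was not called. Across the 28 members the Spearman correlation of log2 IP over input with exon length was 0.48 in ato and 0.41 in wild type, and 0.35 and 0.26 over the 26 members without the eIF4G genes. These correlations describe members that share the same libraries, and over all tested genes they were 0.285 in ato and 0.175 in wild type. All tested genes of at least 5000 exon bases had a median log2 of 0.57 in ato and 0.59 in wild type, close to the values of the eIF4G genes. After a smooth correction for exon length, eIF4G had 0.26 in ato (adjusted p = 0.164) and 0.26 in wild type (0.130), eIF4G2 had 0.16 (0.484) and 0.04 (0.844), and eIF3-S10 had 0.33 in wild type (0.0619), so that their calls were lost. Under this correction 17.6% of all genes were lower and 8.85% higher in ato, and 22.5% lower and 15.3% higher in wild type. The lower calls named above were kept under this correction, and eIF-3p40 (-0.34, adjusted p = 0.0472), eIF3-S8 (-0.44, 0.0179) and Ef1alpha48D joined them in wild type, while eIF-5A and eIF-4B (0.39, 0.0407) joined the higher side.

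**Figure D3:**
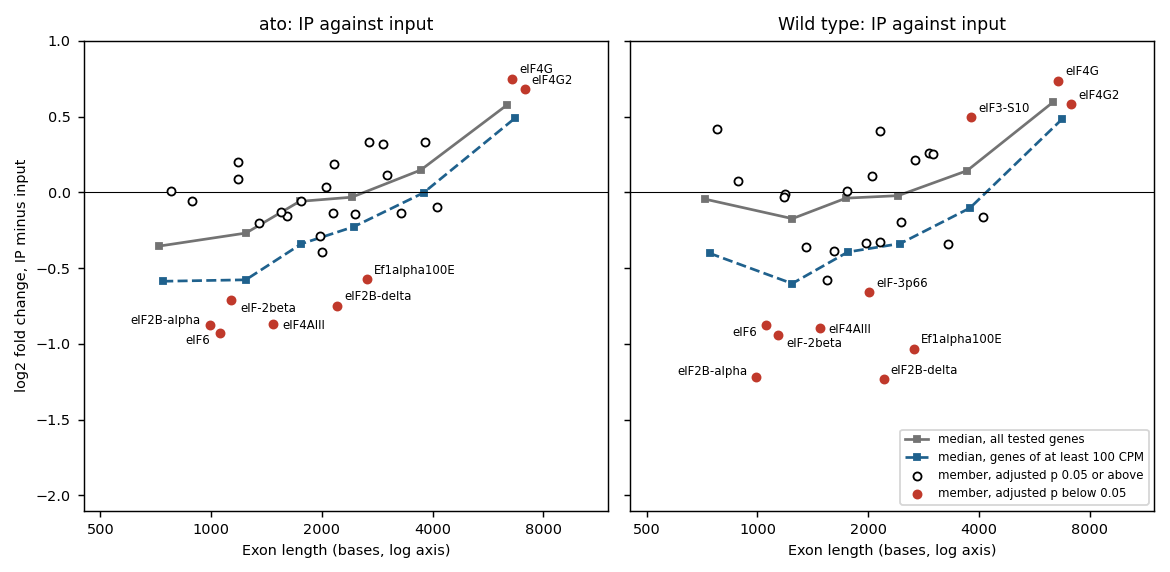
Log2 fold change of IP minus input against exon length in bases (log axis) for the 28 members, in ato (left) and wild type (right), with filled points where the edgeR adjusted p was below 0.05. Lines join the medians of all tested genes and of genes of at least 100 CPM in 6 length bins, and eIF4G and eIF4G2 lie near the line for long genes at 0.57 in ato and 0.59 in wild type.

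The median log2 IP over input of the 29 members tested was -0.10 in ato and -0.17 in wild type, beside 0.02 and 0.06 for all genes and -0.12 and -0.19 for the 1943 genes of at least 100 CPM. With DESeq2 size factors the ato medians were 0.01 for the members and 0.13 for all genes, so the sign of the members' median in ato depended on the scaling, and with 1 run per library it was 0.01 in ato and 0.00 in wild type. With the length correction the medians in ato were -0.05 for the members, -0.05 for all genes and -0.22 for genes of at least 100 CPM, and in wild type -0.21, -0.02 and -0.29 in the same order. Ribosomal protein genes had medians of 0.10 in ato, with 6 of 84 higher and 5 lower, and 0.37 in wild type, with 27 higher and 3 lower. With the length correction 32 of them were higher and 4 lower in ato and 43 higher and 4 lower in wild type. The difference between these sets was not tested.

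Of 20 tested translation factors that carry other names, 7 were lower (35%) and 1 higher (5%) in ato and 8 lower (40%) and 1 higher (5%) in wild type, with medians of -0.33 and -0.36. Of the genes of at least 100 CPM, 27.2% were lower and 15.0% higher in ato and 33.4% lower and 18.2% higher in wild type, and neither these lists nor their differences were tested as sets. The re-initiation factor DENR (CG9099) was lower, at -1.93 ± 0.22 in ato (adjusted p = 1.98e-05) and -2.05 ± 0.22 in wild type (6.84e-06), as was eEF1delta, a further exchange factor for Ef1alpha, at -1.45 ± 0.18 and -1.44 ± 0.18. The poly(A)-binding protein gene pAbp was higher in the wild-type IP by 0.92 ± 0.19. Of 25 genes of translational control, 3 were higher (12%) and 4 lower (16%) in ato and 4 higher (16%) and 4 lower (16%) in wild type. These shares are near those of all genes, 11.9% higher and 16.3% lower in ato and 17.4% and 18.4% in wild type. The repressor gene pum was higher by 1.53 ± 0.19 in ato and 1.61 ± 0.19 in wild type, and larp by 1.19 ± 0.19 and 1.19 ± 0.19. These are values without the length correction, with which the highest value of this list was 0.97 in ato and 1.09 in wild type. The larp calls were lost when the length curve was not centred (0.38, adjusted p = 0.0947 in ato, and 0.36, adjusted p = 0.0958 in wild type). The decapping activator me31B was lower, at -0.92 ± 0.16 and -0.93 ± 0.16. Of 32 aminoacyl-tRNA synthetase genes, 8 were lower (25%) and 0 higher in ato and 14 lower (43.8%) and 0 higher in wild type (12 and 17 lower with the length correction), with medians of -0.40 and -0.47, and Aats-thr (ThrRS) had -0.92 ± 0.15 in ato and -1.01 ± 0.15 in wild type.

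The comparison of ato with wild type asks whether loss of ato function changed these transcripts, in the tagged ribosomes or in the whole brain. A lower value in brain pools of 1 genotype can reflect fewer cells of a type or less RNA per cell, which cannot be told apart here. In the IPs, 0 of the 29 members passed in either direction, where 2.82% of all genes were higher and 1.88% lower. In the inputs 0 of 29 passed as well, where 4.64% were higher and 2.34% lower. At an unadjusted p below 0.05 there were 4 members in the IPs and 2 in the inputs, against 17.4% and 21.4% of all genes. The DESeq2 test called 2 members higher in the IPs, where 4.11% of all genes were higher and 2.48% lower, and 0 in the inputs, where 5.94% were higher and 3.21% lower. The log2 differences of the 28 abundant members lay between -0.38 and 0.68 in the IPs, with SEs of 0.15 to 0.24, and between -0.47 and 0.44 in the inputs, with SEs of 0.15 to 0.24.

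The largest of these values was that of eIF2B-delta in the IPs. The difference was 0.68 ± 0.21 for eIF2B-delta (adjusted p = 0.0688), which had 57.1 and 49.1 CPM in ato IP and 38.3 and 27.7 in wild-type IP. It was 0.47 ± 0.15 for Ef1alpha100E (0.0931), at 1155 and 1244 CPM in ato IP and 846 and 885 in wild-type IP. In both genes the IP groups did not overlap, as in 13 of the 28 abundant members and 45.5% of all genes. In the inputs 12 of the 28 did not overlap, against 54% of all genes. DESeq2 called both (adjusted p = 0.0306 and 0.00373), as did the length correction (0.0328 and 0.0192, where 3.86% of all genes were higher and 2.35% lower), and edgeR called eIF2B-delta without wild-type IP 1 (0.0317). In the inputs Ef1alpha100E stood at 1799 and 1773 CPM in ato and 1683 and 1856 in wild type, groups that overlapped. The exon junction gene eIF4AIII had -0.35 ± 0.16 in the IPs (0.260) and -0.38 ± 0.16 in the inputs (0.175), with both ato libraries below both wild-type libraries each time. The initiation factor gene eIF-2alpha had 0.37 ± 0.16 in the IPs (0.245), with 201 and 190 CPM in ato IP and 146 and 157 in wild-type IP. In the inputs eIF4G2 had -0.47 ± 0.20 (0.180), with 119 and 151 CPM in ato and 167 and 208 in wild type, and eIF6 had 0.44 ± 0.21 (0.241).

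Several marker lists of other cell types differed between the genotypes. Beside the counts below, 2.82% of all genes were higher and 1.88% lower in ato in the IPs, and 4.64% and 2.34% in the inputs. Glial markers summed to 1288 and 1466 CPM in ato IP, 831 and 817 in wild-type IP, 1262 and 1461 in ato input, and 820 and 751 in wild-type input, with 3 of 8 higher and 0 lower in ato in the IPs and 3 higher and 1 lower, loco, in the inputs. The values of Gli were negative in both, at -0.88 in the IPs and -0.79 in the inputs, without passing. Although the sums of the neuronal markers were alike in the inputs, their median log2 difference there was 0.65. Of these 6 markers, 1 was higher in ato input, and 4 with the length correction, where 5.48% of all genes were higher. Muscle markers were higher in 5 of 9 in the IPs and 7 of 9 in the inputs. T4/T5 neuron markers summed to 664 and 527 CPM in ato IP, 869 and 842 in wild-type IP, 449 and 405 in ato input, and 592 and 571 in wild-type input, with 2 of 8 lower in the IPs and 3 of 8 in the inputs. Fat body markers summed to 242 and 121 CPM in ato IP, 134 and 38.8 in wild-type IP, 176 and 92.8 in ato input, and 86.9 and 18.1 in wild-type input, and hemocyte markers lay between 192 and 304 in the 8 libraries. Muscle markers were also higher in 9 of 9 in both IPs relative to their inputs, and neuronal markers in 3 of 6 in ato and 4 of 6 in wild type. Of the T4/T5 neuron markers, 4 of 8 were higher in ato and 3 of 8 in wild type, with 0 lower. Glial markers had 2 higher and 3 lower in ato and 2 higher and 2 lower in wild type. Of all genes, 11.9% were higher in ato and 17.4% in wild type. The part of these cells in the members' values was not tested.

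**Figure D4:**
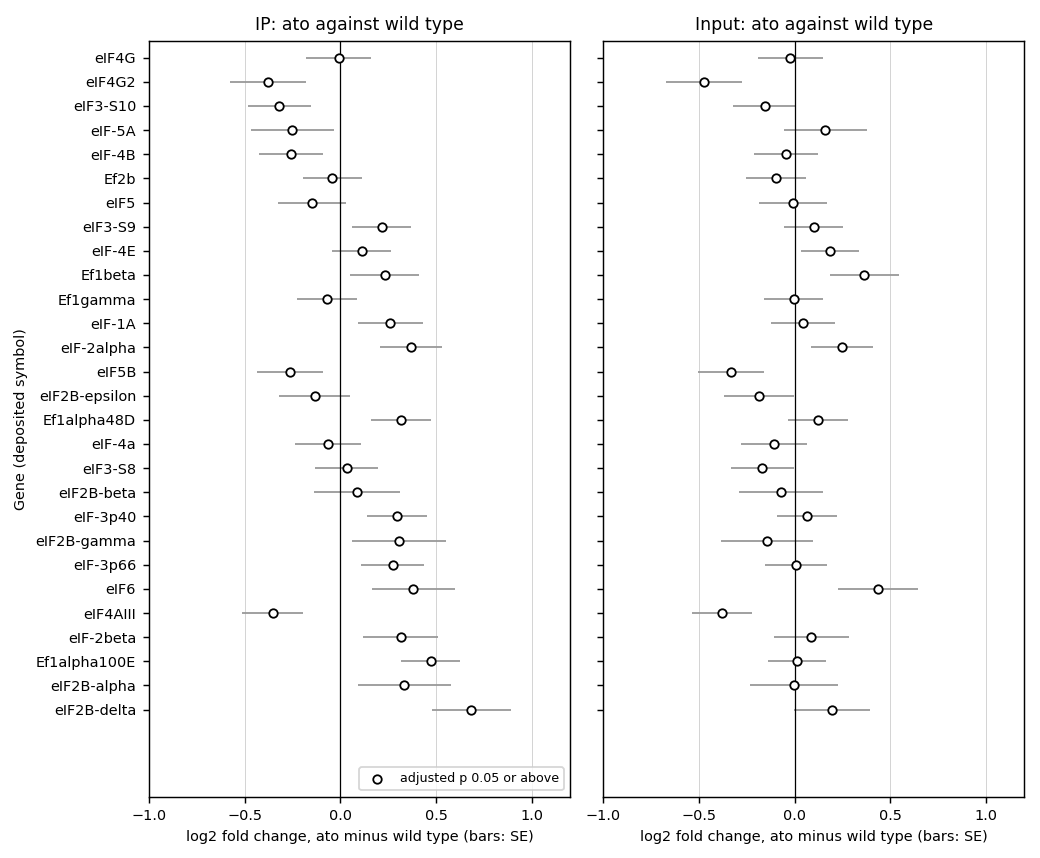
Log2 fold change of ato minus wild type for the 28 members, in the IPs (left) and in the inputs (right), with bars of 1 SE from 2 libraries per group. All points are open because 0 members passed the edgeR test, and eIF2B-delta at 0.68 in the IPs lies farthest from 0.

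The IP-over-input ratio did not pass for a difference between genotypes in any member, nor in any of the 10224 genes (0 calls in either direction), with DESeq2 calling 1 gene lower (0.00978%) that is no member. At an unadjusted p below 0.05 there was 1 member, Ef1alpha100E, with 0.46 ± 0.21 (unadjusted p = 0.0484, adjusted p = 0.991), against 4.26% of all genes. Over the 28 members the differences lay between -0.41 and 0.49, with SEs of 0.21 to 0.34. The eIF2B values ran from 0.05 to 0.49, and the lowest member was eIF-5A at -0.41 ± 0.30, whose wild-type IP libraries are far apart.

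Outside the family, the translation genes called between genotypes were in the inputs. There 1 of 20 translation factors under other names was lower and 1 of 25 genes of translational control higher. Of the 32 synthetase genes 0 passed. Over all genes 4.64% were higher and 2.34% lower in the inputs. NAT1, an eIF4G relative that supports cap-independent initiation, was lower in ato input, at -0.61 ± 0.17 (adjusted p = 0.0373). Thor, the 4E-binding protein that withholds eIF-4E from eIF4G, was higher in ato input by 0.78 ± 0.22 (0.0411). Neither call was stable: that of NAT1 ended when any input was left out (0.149 and 0.0883 for the ato replicates, 0.140 and 0.304 for the wild-type replicates). That of Thor ended without replicate 1 of the ato input (0.364), without replicate 1 (0.304) or 2 (0.137) of the wild-type input, and with the length correction (0.174). In the IPs 0 genes of the 3 lists passed. The length correction called larp and the synthetase gene Aats-his (HisRS) higher in ato IP (adjusted p = 0.0414 and 0.0288), where 3.86% of all genes were higher.

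The 5 eIF4E paralogs other than eIF-4E were near the floor of detection, and their patterns rest on few counts. A count of 3 in a library corresponds to 0.245 to 0.405 CPM. Over the whole table, 11774 to 12533 genes had a count in an IP library, against 10368 to 10899 in an input. Log2 IP over input of all tested genes correlated with mean level at -0.38 in ato and -0.45 in wild type (Spearman). Counts in the IPs with few in the inputs are therefore not particular to these paralogs. In flies eIF4E-3 (chromosome 3L, 8222333 to 8223668) is known for its role in spermatogenesis. It had 26 and 8 counts in ato IP and 0 in each of the other 6 libraries, which makes it at least 11.8-fold higher in ato IP than in wild-type IP and at least 12.5-fold higher than in ato input, against a floor of 3 counts over the group. The counts were spread over 4 of 4 runs of ato IP 1 and 3 of 4 runs of ato IP 2. The low-count filter removed this gene before the test, and without the filter it was called higher in ato IP than in ato input (edgeR adjusted p = 0.0339), but not between ato IP and wild-type IP (0.0991).

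The gene eIF4E-5 had 11 and 6 counts in ato IP, 2 and 4 in wild-type IP, 0 and 0 in ato input, and 1 and 0 in wild-type input. That is at least 6.24-fold higher in ato IP than in ato input, and 2.94 times the wild-type IP (95% counting interval 1.11 to 9.11). The gene eIF4E-4 had 10 and 7 counts in ato IP, 0 and 39 in wild-type IP, 0 and 3 in ato input, and 1 and 5 in wild-type input, so that a single wild-type IP library held all of the reads of that group. It passed the filter but not the test from input to IP (log2 2.60, adjusted p = 0.290 in ato; log2 3.17, adjusted p = 0.130 in wild type). The gene eIF4E-6 went the other way, with 0 and 0 counts in ato IP, 4 and 2 in wild-type IP, 5 and 22 in ato input, and 2 and 6 in wild-type input, at least 8.17-fold lower in ato IP than in ato input (adjusted p = 0.0419 without the filter). The gene eIF4E-7 had 11 and 0 counts in ato IP, 6 and 0 in wild-type IP, 0 and 0 in ato input, and 0 and 7 in wild-type input, present in at most 1 library of each group. The intervals cover counting error only. The bounds set the observed count against the floor and leave out the counting error of that count, so they may be too high. The intervals would be too narrow and the bounds higher still than they should be if both ends of a fragment had been counted, which the headers leave unstated.

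Counts of testis and germ-line genes stand beside these. The 12 testis and germ-line markers summed to 29.7 and 55.7 CPM in ato IP, 23.1 and 28.9 in wild-type IP, 19.1 and 25.6 in ato input, and 14.7 and 24.8 in wild-type input. The sperm-tail gene dj had 28 and 55 counts in ato IP, 23 and 30 in wild-type IP, 1 and 0 in ato input, and 0 and 1 in wild-type input. The germ-line gene nos had 1 and 129 counts in ato IP and 0 in the other 6 libraries, so its counts were nearly all in ato IP 2, whereas those of eIF4E-3 were mostly in ato IP 1. Both dj and nos were chosen after their values were seen. The marker sa also had most of its counts in the IPs, with 17 and 23 in ato IP and 26 and 1 in wild-type IP. It had 3 and 1 counts in ato input and 0 and 0 in wild-type input. Other markers did not follow the IP. Counts of tj were 26 and 9 in ato IP, 40 and 73 in wild-type IP, 12 and 32 in ato input, and 48 and 50 in wild-type input. The marker mia had 76 and 138 counts in ato IP and 76 and 122 in ato input. In wild type mia had 60 and 33 counts in the IP and 73 and 89 in the input. The marker bam had 31 and 34 counts in ato IP and 22 and 66 in ato input. In wild type bam had 4 and 1 counts in the IP and 11 and 26 in the input. From input to IP, 6 of the 8 tested markers had positive values and 2 negative in ato, and 4 and 4 in wild type. Of these 8 markers, 1 was called higher in ato and 2 in wild type, and 0 lower. Over all genes 11.9% were higher in ato and 17.4% in wild type. Their part in the eIF4E paralog counts was not tested.

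**Figure D5:**
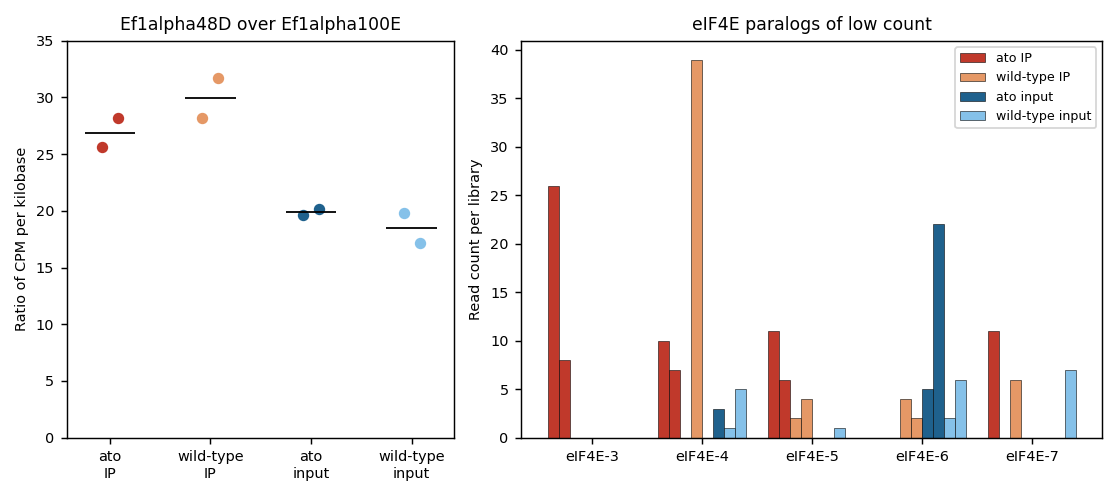
Left, ratio of Ef1alpha48D to Ef1alpha100E in CPM per kilobase, with 1 point per library and a bar at the group mean, where the IPs lie between 25.7 and 31.7 and the inputs between 17.2 and 20.2. Right, read count of the 5 eIF4E paralogs in each of the 8 libraries, where eIF4E-3 has counts in the ato IPs only (26 and 8).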

How the data were processed

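Each of the 8 libraries was deposited as 4 runs, which gives 32 samples, and the counts of the 4 runs were summed. Gene counts are those the authors deposited, for which the submitters' processing notes name TopHat2 2.0.12 and featureCounts 1.4.4. Exon reads of mapping quality 5 or more were counted on dm3, per the file headers, with no option for strand, pairs, multiple matches or overlapping genes, so reads of antisense partners cannot be told apart. The exon length of each gene is the deposited value too. Coordinates are those of the deposited table, counted from 1.

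Tests used edgeR 4.0.16 in R 4.3.3 (filterByExpr, TMM, quasi-likelihood F tests, 4 groups in 1 model), with Benjamini-Hochberg adjustment over 10224 of 14161 genes, a threshold of 0.05 and a common biological coefficient of variation of 0.203. SE is the absolute log2 change divided by the square root of F. The filter left out 4 of the 33 members (eIF4E-3, eIF4E-5, eIF4E-6 and eIF4E-7). The exon length correction entered a loess curve, centred per library, as an offset. DESeq2 1.42.0, other scalings, no filter, 1 run per library, only the groups compared, a replicate block and leaving out each library were alternatives.

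Values in every library are given for the 6 members highest per kilobase and for members called at 10 CPM or more; from other lists up to 3 genes of smallest adjusted p per comparison were named. Members, lists and rules were chosen with earlier results of these data known. The name Mextli had no match.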

Additional observations from a re-analysis of the deposited data

How the results depend on the processing

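The number of members called kept within 1.5 times its value in 108 recomputations and moved further in 18. Most of the 108 are counts between genotypes, of levels or of the IP-over-input ratio, that were 0 and stayed 0. The tally is therefore no measure of stability. The counts that moved were as follows. Between genotypes in the IPs, members called higher numbered 0 in the edgeR test, 1 with no filter on low counts, 2 with the DESeq2 Wald test, 2 with the exon length correction and 1 with that curve not centred, an alternative chosen after seeing the data, and 0 to 1 when a library was left out. In the inputs, 1 member was lower with the curve not centred, against 0. From input to IP, members called higher numbered 2 in ato and 3 in wild type, against 5 and 5 with the Wald test, 0 in ato with the length correction, 0 and 0 with the curve not centred, and 0 to 2 in ato and 1 to 3 in wild type when a library was left out. Members called lower numbered 6 in ato and 7 in wild type, against 11 and 15 with the curve not centred, which moves the median of all genes to -0.20 in ato and -0.22 in wild type. With that setting eIF4G2 in wild type turned to -0.16 (adjusted p = 0.435). DESeq2 size factors moved the median of all genes in ato to 0.13, against 0.02, and called 3 higher and 6 lower. Of the uncalled values of the abundant members, 57 of 122 changed sign in some alternative, the largest of them at 0.42, so no direction is read from them. A replicate block left each count of called members as it was (2 higher and 6 lower in ato, 3 higher and 7 lower in wild type, 0 between genotypes). Deviations of same-numbered input and IP libraries correlated at 0.165 in ato and 0.0963 in wild type, and the other pairs at -0.0548 to 0.06, so the numbers were not taken as pairs. With 2 libraries per group, leaving out a library leaves an arm with a single library that is assumed to vary like the others.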
